A study of Mus musculus with 4 samples.

Results

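Vascular smooth muscle cells of the mouse brain were described from MERFISH images, which count single mRNA molecules in place. A cell was taken as a smooth muscle cell when it held at least 3 transcripts of Acta2 (smooth muscle alpha-actin) and at least 2 of Myl9 (the regulatory light chain of myosin). These 2 genes together also had to make up at least 4% of the cell's transcripts and to exceed both the pericyte genes Pdgfrb, Vtn and Rgs5 and the endothelial genes Cldn5, Itm2a, Adgrl4 and Abcb1a. Of 281824 cells that passed the filters on size and content, 1916 met this rule.

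The data came from 4 coronal sections of the striatum, each 10 µm thick. The methods name C57BL/6NTac mice, and 2 sections were labelled young (2 months) and 2 aged (18 months), with no treatment or transgene named for either group. The labels do not tie sections to mice, so sections and not mice are the units of every test. The edgeR fits below estimate the spread of a gene with help from the other genes. Their p-values therefore do not measure the spread of that gene between sections alone. Kept cells of a section held between 18765491 and 36035355 decoded transcripts, fewest in the first aged section, and no cell barcode was shared.

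Smooth muscle cells form the contractile coat of arteries and arterioles, and of some veins. They set the width of the vessel by shortening along actin and myosin, under signals such as endothelin, and they lie in a sheath of basement membrane that they help to build. Pericytes, a related mural cell, take their place on capillaries, and in larger vessels fibroblasts and macrophages occupy the space around the muscle coat.

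The rule found 464 and 544 smooth muscle cells in the young and 466 and 442 in the aged sections. A smooth muscle cell held a median of 238.5 and 256.5 transcripts at the young age and of 184 and 238 at the aged one, below the medians of 400, 325, 215 and 293 over all kept cells. The median cell held 21, 24, 13 and 21 transcripts of Acta2 and 12, 12, 8 and 9 of Myl9. These counts describe what the rule selected.

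Cald1, which encodes the actin-binding protein caldesmon and was not used by the rule, was detected in 86.6% and 87.7% of the young and in 77.7% and 89.8% of the aged smooth muscle cells. It was detected in 24.0 to 31.9% of endothelial-rule cells, that is, cells chosen in the same way by the endothelial genes, and in 71.9 to 82.5% of pericyte-rule cells. Cald1 thus set the cells apart from endothelium more than from pericytes. Tagln, Myh11, Cnn1 and Des, further smooth muscle genes, are not among the 383 genes measured.

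Cells close to the 4% limit were few. Between 4 and 5% lay 13, 26, 19 and 28 of the smooth muscle cells of the sections in the order given above, and 17, 22, 27 and 23 cells with 3 to 4% met every other part of the rule. The level of Cald1, in transcripts per 10000 transcripts summed over the cells, was 85.8, 97.8, 72.5 and 86.9 just inside the limit and 53.0, 109, 73.1 and 75.9 just outside it.

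The genes of the rule lie apart in the genome (GRCm38.p6, RefSeq), Acta2 on chromosome 19 (34240336 to 34255585) and Myl9 on chromosome 2 (156775408 to 156781657). Contractile genes are known targets of serum response factor, which binds the CArG box. Promoters, here the 250 bases before a transcript's start and the 50 after it, were searched on both strands for the strict form of this box, which reads the same on either strand. It was present in 1.63% of 32851 mouse promoters and in those of 2 of the 14 contractile and cytoskeletal genes of the panel, Myl9 and Cnn2 (calponin 2). Their windows are shown because they belong to genes that mark the smooth muscle cells, with the box in capitals and up to 60 bases on either side, 5′ to 3′, at chr2:156775243-156775372 and chr10:79988484-79988599, both on the plus strand.
Myl9: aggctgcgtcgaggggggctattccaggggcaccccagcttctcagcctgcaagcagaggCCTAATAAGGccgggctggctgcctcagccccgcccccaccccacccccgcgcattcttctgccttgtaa
Cnn2: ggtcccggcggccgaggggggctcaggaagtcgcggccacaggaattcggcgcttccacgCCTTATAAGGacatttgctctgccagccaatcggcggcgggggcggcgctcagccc
The promoter of Acta2 held no strict CArG box in this window. A match is a description of the letters and not evidence of binding.

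Smooth muscle cells were a small share of the tissue. They made up 0.682% of the kept cells of the first young section (95% Wilson interval 0.623 to 0.747%) and 0.769% of the second (0.707 to 0.836%). In the aged sections they were 0.681% (0.622 to 0.746%) and 0.592% (0.540 to 0.650%). Their density was 13.7 and 13.4 per mm² of young tissue and 12.2 and 11.1 per mm² of aged tissue. Both aged densities lay below both young ones, with p = 0.3333 in a two-sided exact permutation test, the smallest value that 2 sections against 2 can give. With the area inside an outline of all segmented cells the densities were 12.9 and 9.25 against 9.77 and 9.22 per mm², and the ages overlapped (p = 0.6667 in the same exact test). The first aged section also had the fewest transcripts per cell, and the part of this depth in the result was not tested. When every cell was thinned to 200 transcripts, which left out between 18157 and 31994 shallower cells per section, the shares were 0.514%, 0.690%, 0.615% and 0.541% and the ages overlapped. Endothelial-rule cells were also less dense in both aged sections, at 87.2 and 73.1 per mm² in young and 55.4 and 61.4 in aged tissue. Pericyte-rule cells stood at 66.9 and 60.6 against 58.9 and 62.9 per mm², and the ages overlapped.

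Their position set them apart from the other vascular cells. Between 19.9 and 35.8% of the smooth muscle cells lay within 100 µm of the outline of the section (28.0% and 35.8% in young, 26.2% and 19.9% in aged), where only 5.10 to 6.27% of all kept cells, 6.15 to 7.82% of endothelial-rule cells and 8.82 to 11.4% of pericyte-rule cells lay. In each of the 4 sections the share of smooth muscle cells was above that of the 3 other sets. The outline can be pia, a cut or a border of the image, which the files do not tell apart. With an outline drawn around every segmented cell, which took in loose debris beside the second young section, the share was 0.368% there, below the 0.489% of pericyte-rule cells, so the order did not hold in that section. It was 23.3%, 10.9% and 6.79% in the other sections, still above the other sets.

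Smooth muscle cells stood in groups. The median distance from one smooth muscle cell to the next was 9.97 and 11.5 µm in young and 13.2 and 13.4 µm in aged tissue, against 229 to 274 µm from any kept cell to the nearest smooth muscle cell. Within 50 µm of a smooth muscle cell lay on average 5.25, 3.89, 2.47 and 2.52 others. When cells within 50 µm of each other were linked, 59.7% and 54.2% of the young cells and 33.5% of those of either aged section fell into groups of at least 5. The largest groups held 37 and 29 cells at the young age and 15 and 16 at the aged one, so both measures of grouping were higher in both young sections. The distance to the next cell had p = 0.3333 between the ages in the exact permutation test, again the smallest possible, and the other measures of grouping were not tested.

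**Figure D1:**
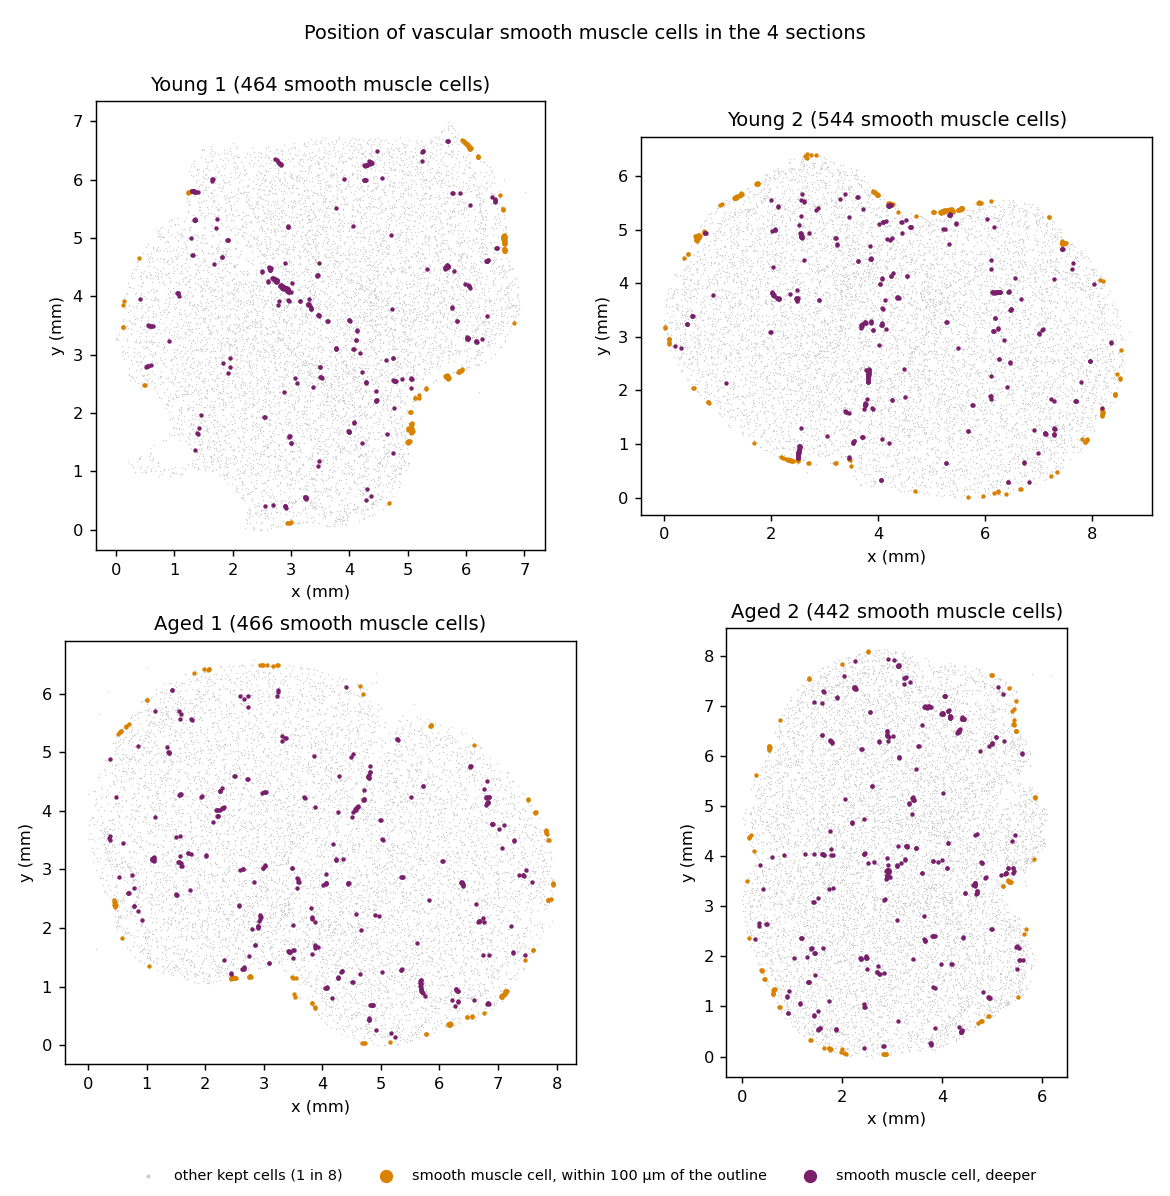
Position of the smooth muscle cells in each section, in mm along both axes of the image. Orange points lie within 100 µm of the outline, purple points deeper, and grey points are 1 in 8 of the other kept cells. Cells line parts of the border and form strings and clumps inside the tissue, with 464, 544, 466 and 442 cells in the 4 sections.

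Cells with fibroblast or border macrophage genes were near, while endothelial-rule cells were not. Cells with at least 4 transcripts of the fibroblast genes Aldh1a2, Inmt and Aox3 lay within 50 µm of 38.6%, 37.5%, 26.8% and 37.8% of the smooth muscle cells and of 4.58 to 7.15% of all kept cells. Cells with at least 5 transcripts of border macrophage genes lay within the same distance of 19.0%, 25.7%, 11.8% and 11.5%. Only 1.95 to 5.60% of all kept cells had such a macrophage-gene cell that close. The nearest pericyte-rule cell lay at a median of 57.7, 70.9, 73.3 and 73.1 µm, against 59.0 to 62.5 µm for all kept cells. The nearest endothelial-rule cell lay at a median of 69.0, 80.7, 84.2 and 75.3 µm. For all kept cells this distance was shorter in every section, at 50.8, 55.2, 64.0 and 60.8 µm.

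Smooth muscle cells were also counted by zone, with the cells near the outline included. Where spiny neurons, the main neurons of the striatum, dominated, as found from their genes among the transcripts within 150 µm, their density was 6.09, 10.1 and 8.80 per mm² in the first 3 sections, below the 17.5, 15.7 and 14.1 per mm² of tissue in neither zone. In the second aged section both densities were 11.4 per mm². Oligodendrocyte-rich tissue, found in the same way from oligodendrocyte genes, held 23.7, 2.59, 8.72 and 6.67 per mm², from only 38, 5, 22 and 15 cells.

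Smooth muscle cells were next compared with pericyte-rule cells of the same sections (2268, 2453, 2245 and 2503 cells), to see what parts the 2 mural cells beyond the genes of the rules. Counts were summed per section and fitted with edgeR, with the section as a block. Of 371 genes that neither rule used, 115 were higher in smooth muscle cells (31.0% of those tested) and 130 lower (35.0%), or 66.0% in all. With library totals that leave out the rule genes, 96 were higher and 160 lower, and the median log2 fold change over all genes was -0.20. Both sets were chosen on transcript shares of the same cells, and the rule genes get no test.

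Contractile and cytoskeletal genes moved one way. Of 11 such genes tested, 10 were higher in smooth muscle cells and 0 lower, with a median log2 fold change of 1.07 against -0.00 over all tested genes. Crip1, a LIM-domain protein, stood at 28.5, 30.5, 24.4 and 24.5 transcripts per 10000 in smooth muscle cells and at 3.63, 4.06, 2.75 and 3.82 in pericyte-rule cells. No section overlapped between the cell sets, and the log2 fold change was 3.18 ± 0.11 (SE; adjusted p = 7.35e-07). Actn1, which encodes the actin cross-linker alpha-actinin 1, was 2.87 ± 0.10 higher on the log2 scale (adjusted p = 6.84e-07), and the intermediate filament gene Vim 2.74 ± 0.06 (adjusted p = 1.67e-07). Synm, another intermediate filament gene, differed by 1.73, Cnn2 by 1.20, the scaffold gene Ahnak by 0.95 and Cald1 by 0.48.

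Genes of the matrix and its remodelling split. Of 14 tested, 9 were higher and 2 lower. Mgp, the matrix Gla protein that restrains calcification of arteries, stood at 116, 137, 83.6 and 85.6 per 10000 against 18.4, 19.9, 17.3 and 21.9 in pericyte-rule cells (2.68 ± 0.14, adjusted p = 5e-06). Timp3, an inhibitor of metalloproteinases, was the most abundant of the group at 436 to 558 per 10000 and was higher by 1.41. The basement membrane gene Col4a2 was higher by 1.25 and the fibronectin gene Fn1 by 1.16. The laminin receptor gene Itga6 was lower by 1.19 on the same scale, in the fit as -1.19 ± 0.13, and the basement membrane gene Vwa1 by 0.44 (-0.44 ± 0.10).

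Signals of the PDGF, TGF-beta and endothelin families were higher or not called. Of 9 tested, 6 were higher and 0 lower. Tgfb3, a ligand of the TGF-beta family, stood at 51.5, 45.5, 36.9 and 34.3 per 10000 against 4.91 to 5.79 in pericyte-rule cells (3.22 ± 0.12, adjusted p = 1.12e-06). Pdgfa (1.52), Vegfc (1.48), Pdgfra (1.24), Fgf2 (1.19) and the endothelin gene Edn1 (0.90) were also higher. Among 26 inflammation and ageing genes, 14 were higher and 3 lower, led by the adhesion gene Vcam1 (1.93 ± 0.10, adjusted p = 4.86e-06). Among the 5 genes with the largest differences in the other direction were Car4, a carbonic anhydrase of capillaries (-3.81 ± 0.17), the creatine synthesis gene Gatm (-2.58 ± 0.16) and the lactate transporter gene Slc16a1 (-2.54 ± 0.12), with Opalin and Gpr17 of the oligodendrocyte lineage.

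Genes of other cells moved in the same comparison. All 6 fibroblast genes and all 4 arterial endothelial genes were higher in smooth muscle cells, as were 4 of 5 border macrophage genes. Some genes are counted in more than 1 list. Mgp and Igfbp5 of the matrix list and Pdgfra of the signal list are also among the fibroblast genes. Vegfc of the signal list is also an arterial endothelial gene. Of 7 astrocyte genes 5 were higher and 1 lower. Of 6 oligodendrocyte genes 5 were lower, of 7 microglia genes 4 and of 4 neuroblast genes all 4, with 0 higher in each. Of 7 neuron genes 5 were lower and 1 higher, and of 9 spiny neuron genes 6 were lower and 3 higher. Summed over each list, fibroblast genes made up 197 to 265 per 10000 in smooth muscle cells and 66.4 to 78.1 in pericyte-rule cells. Of 9 endothelial genes outside the rules 4 were lower and 3 higher. The endothelial list, rule genes included, made up 533 to 626 per 10000 in smooth muscle cells and 713 to 814 in pericyte-rule cells. The part of transcripts from neighbouring cells in these differences, and in those of Car4, Gatm and Slc16a1, was not tested.

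**Figure D2:**
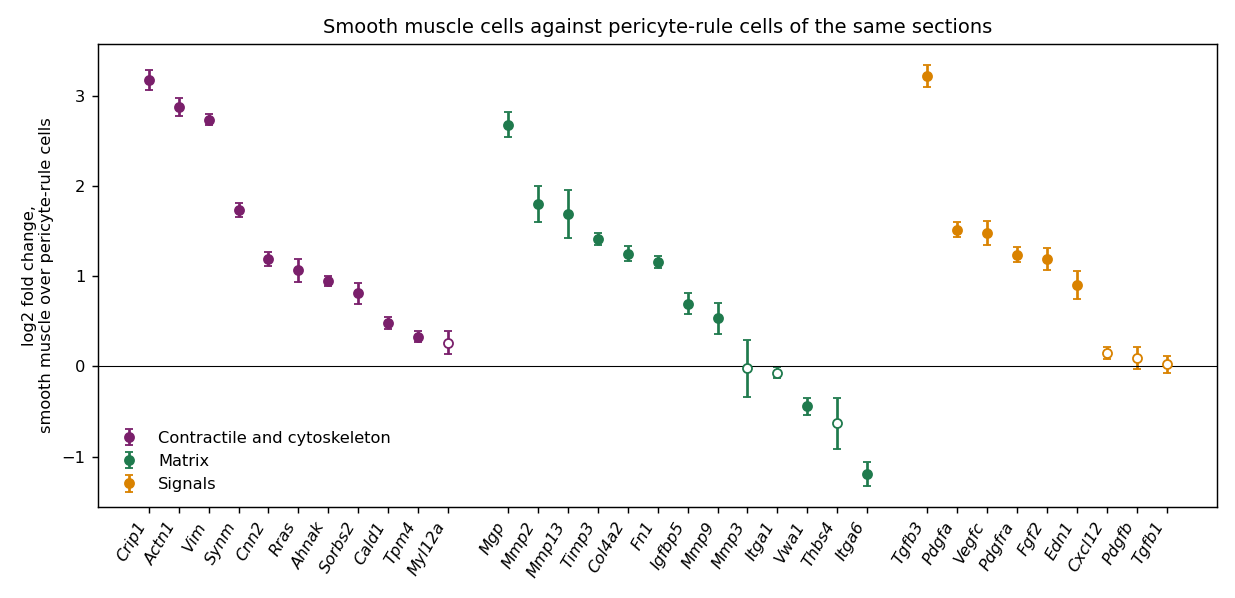
Log2 fold change between smooth muscle cells and pericyte-rule cells for 3 groups of genes, with standard errors from 4 sections; filled points passed the adjusted threshold of 0.05 and open points did not. Of the contractile and cytoskeletal genes 10 of 11 lie above 0 as filled points, while the matrix genes shown run from Mgp (2.68) down to Itga6 (-1.19).

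The endothelium beside smooth muscle cells was compared with the rest, to place the cells on the vascular tree. Endothelial-rule cells within 25 µm of a smooth muscle cell numbered only 26, 21, 16 and 13, against 9419 cells in all that lay over 100 µm from any. Of 356 genes outside the rules, 34 were higher near smooth muscle cells (9.55%) and 76 lower (21.3%), or 30.9% in all, with a median log2 fold change over all genes of -0.39. By DESeq2, with its own scaling, 35 were higher and 47 lower.

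All 4 arterial endothelial genes were higher near smooth muscle cells, with a median log2 fold change of 2.80. Bmx, a tyrosine kinase of arterial endothelium, stood at 84.1, 71.8, 67.2 and 26.1 per 10000 in the near cells and at 4.75 to 9.12 in the far cells (3.27 ± 0.33, adjusted p = 4.75e-20). Gkn3, a marker of brain arteries, differed by 2.83 ± 0.43, Vegfc by 2.78 ± 0.62 and Sema3g by 2.27 ± 0.57. In each of the 4 sections all 4 genes were higher in the near cells.

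Mgp differed most, at 170, 223, 130 and 99.0 per 10000 near against 2.30 to 3.36 far (5.60 ± 0.26, adjusted p = 6.51e-86), and Vcam1 stood at 134, 140, 63.3 and 120 near against 10.3 to 18.0 far (2.85 ± 0.24). Mgp is also in the fibroblast list, of whose 6 genes 4 were higher in the near cells and 0 lower, with a median log2 fold change of 2.415. Among them was Aldh1a2 (2.90). The fibroblast list summed to 221, 324, 186 and 146 per 10000 near and to 24.8 to 26.9 far. Transcripts of the neighbouring muscle were present in the near cells. Acta2 stood at 65.9, 77.6, 43.5 and 20.8 per 10000 there and at 0.495 to 0.890 in the far cells, and it was 810 to 1004 in the smooth muscle cells. In the smooth muscle cells Mgp stood at 83.6 to 137 and Vcam1 at 37.2 to 62.4 per 10000, below the near cells of the same section. The part of transcripts from the muscle coat or other neighbours in the genes of the near cells, Mgp and Vcam1 included, was not tested.

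Of 9 endothelial genes outside the rule, 4 were lower in the near cells and 1 higher, and the thyroid hormone transporter gene Slco1c1 differed by -1.17 ± 0.13 (adjusted p = 1.89e-16). The 5 genes with the largest fitted decreases had 0 transcripts among the 15068 of the near cells. Against a floor of 3 transcripts over the group, Gap43 was at least 5.75-fold lower, Ptpn5 3.88-fold, Mag 3.33-fold, Pcsk2 3.25-fold and Meg3 2.62-fold. All 5 are genes of neurons or oligodendrocytes.

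The cells near the outline differed from those deep in the tissue. There were 130, 195, 122 and 88 smooth muscle cells within 100 µm of the outline and 334, 349, 344 and 354 deeper. The edge cells were smaller in content, with a median of 108, 142, 104.5 and 148.5 transcripts against 316, 336, 216 and 262.5. Position was no part of the rule, so genes were tested with the section as a block. Of 323 genes outside the rule, 56 were higher at the edge (17.3%) and 55 lower (17.0%), or 34.4% in all. With library totals that leave out the rule genes, 37 were higher and 83 lower, and the median log2 fold change over all genes moved from 0.01 to -0.20.

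At the edge, contractile and cytoskeletal genes were higher in 5 of 11 cases and lower in 0. Ahnak stood at 643, 512, 640 and 597 per 10000 at the edge and at 312, 289, 378 and 304 in depth (1.12 ± 0.12, adjusted p = 4.91e-06). Synm (0.95), the adaptor gene Sorbs2 (1.08), Vim (0.53) and Cald1 (0.46) were higher too. Of the rule genes, Acta2 stood at 850 to 1060 per 10000 at the edge and 778 to 999 in depth. Fam129a, also called Niban, differed by 2.05 ± 0.21, from 28.0, 32.6, 15.7 and 15.6 per 10000 at the edge to 7.74, 7.07, 5.22 and 5.45 in depth.

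Matrix and signal genes split by depth. Of 12 matrix genes 6 were higher at the edge, among them Mgp (0.74), Timp3 (0.67) and Fn1 (0.56), and 2 were lower. Tgfb3 (1.01) and Fgf2 (1.42) were higher at the edge, while Pdgfb, the ligand that recruits mural cells, was lower (-1.13 ± 0.25, adjusted p = 0.00231), at 6.88, 10.3, 7.21 and 10.01 per 10000 against 33.2, 25.6, 13.7 and 16.5. Ano1, a calcium-activated chloride channel of contractile mural cells, was lower at the edge in every section, with 11.8, 17.9, 17.1 and 24.4 per 10000 against 70.0, 60.3, 75.3 and 67.5 (-1.73 ± 0.18, adjusted p = 4.91e-06). Rgs4, which shortens G protein signals, was lower by 0.77 on the log2 scale, with a fit of -0.77 ± 0.13. Ano1, in none of the gene lists, was chosen after its value was seen. Markers of other vascular cells moved with these genes. Of 9 endothelial genes outside the rule 4 were lower at the edge and 0 higher, and the list summed to 401, 379, 335 and 469 per 10000 against 662, 599, 603 and 541 in depth. The pericyte genes of the rule summed to 101, 177, 123 and 178 at the edge and to 331, 339, 233 and 308 in depth. Their part in the lower Pdgfb, Ano1 and Rgs4 was not tested.

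Genes of the surroundings moved with depth. Gfap, of the astrocytes that border the pia, was higher at the edge by 2.08 ± 0.22, and of 6 fibroblast genes 4 were higher and 2 lower. The astrocyte transporter gene Slc6a11 was lower (-1.82 ± 0.24), and Il33 (-2.60 ± 0.39) and Itih3 (-2.68 ± 0.46) were among the 5 with the largest decreases. Of 7 neuron genes 3 were lower at the edge and 0 higher. Their part in the result was not tested.

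**Figure D3:**
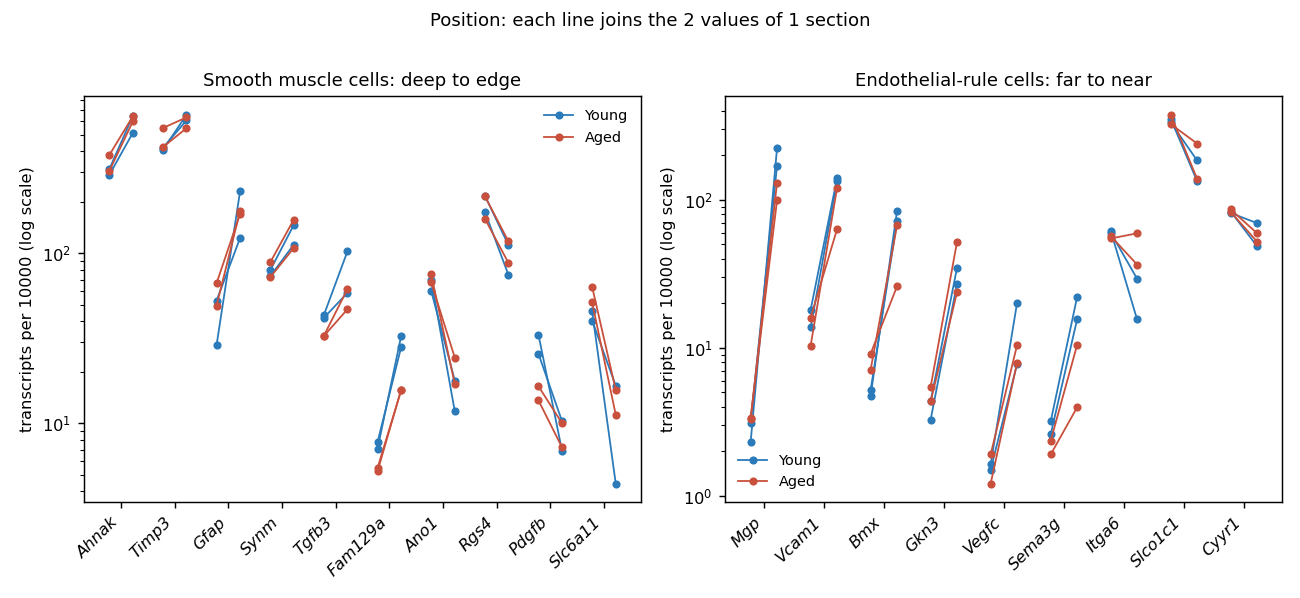
Levels by position in transcripts per 10000 on a log scale. On the left each line joins smooth muscle cells deep in the tissue to those within 100 µm of the outline in 1 section, and on the right endothelial-rule cells over 100 µm from any smooth muscle cell to those within 25 µm. All 4 lines rise for Ahnak and for Bmx and fall for Ano1.

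Young and aged smooth muscle cells were compared last. Of 343 genes outside the rule, 37 passed the adjusted threshold of 0.05 (10.8%), 31 higher in the aged sections (9.04%) and 6 lower (1.75%). Leaving out either aged section left 0 calls, with 75 and 67 genes at an unadjusted p under 0.05, while 23 were called without either young section, of which 20 and 19 were among the 37. The direction of all 37 was the same in each of these 4 fits.

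The 6 lower genes were 3 of the matrix list, 2 of the signal list and Fam129a. Col4a2, a chain of the type IV collagen of the basement membrane, stood at 37.6 and 26.6 per 10000 in young cells and at 12.8 and 16.5 in aged cells, and it fell by 1.15 ± 0.22 on the log2 scale (adjusted p = 0.00594). Fn1 stood at 122 and 145 at the young age and at 88.7 in either aged section, and fell by 0.63 ± 0.17 (adjusted p = 0.0193). For Mgp the levels were 116 and 137 in young cells and 83.6 and 85.6 in aged cells, and it fell by 0.61 ± 0.17 (adjusted p = 0.0209). The ages did not overlap for any of these 3 matrix genes, and both aged sections were lower. This describes the values that gave the calls and is no separate support.

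The 2 called signals were Edn1, the gene of the constrictor peptide endothelin 1, and Pdgfb. Edn1 stood at 18.5 and 22.8 per 10000 in young cells and 8.64 and 11.8 in aged cells, and fell by 1.05 ± 0.23 (adjusted p = 0.0136). Pdgfb stood at 29.6 and 22.3 in young cells and at 12.7 and 15.8 in aged cells, and fell by 0.89 ± 0.22 (adjusted p = 0.0168). Both are made chiefly by endothelium, and the endothelial list as a whole made up 550 to 626 per 10000 in the young and 533 to 565 in the aged smooth muscle cells, a list that holds 4 genes the rule limits. The arterial endothelial list did not overlap between the ages, summing to 83.4 and 86.4 per 10000 in young cells against 68.2 and 73.8 in aged cells, with 0 of its 4 genes called. The part of endothelial transcripts in the decreases of Edn1 and Pdgfb was not tested. Fam129a, at 10.5 and 12.7 in young cells and 6.74 and 6.66 in aged cells, fell by 0.83 ± 0.25 (adjusted p = 0.0348). All 6 genes stood above their level in all kept cells in each of the 4 sections. They were also lower with age in all kept cells, where their median log2 ratio of aged to young was -0.22 (-0.43 to -0.09). In the smooth muscle cells their median log2 fold change was -0.86.

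Within the groups of genes, 3 of 13 matrix genes were lower and 0 higher, with a median log2 change of -0.39 against -0.00 over all genes. Among 9 signal genes 2 were lower and 0 higher, and the median was -0.20. Summed over the list, with the rule gene Vtn, matrix genes made up 891 and 931 per 10000 in young and 895 and 777 in aged cells. The ages thus overlapped for the matrix list. The signal list, with the rule gene Pdgfrb, summed to 304 and 295 against 216 and 248 and did not overlap. Of the matrix genes that did not pass, Vwa1 changed by -0.68 (adjusted p = 0.0646), Mmp2 by -0.89 (0.0921) and Timp3 by 0.11 (0.689). Tgfb3 changed by -0.47 (0.0950).

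The contractile and cytoskeletal genes gave 0 calls among 11, with a median of -0.25. Cald1 stood at 144 and 142 per 10000 in young cells and 112 and 134 in aged cells (-0.25 ± 0.16, adjusted p = 0.353), and Actn1 at 65.4 and 56.6 against 41.0 and 52.1 (-0.42 ± 0.18, adjusted p = 0.142). Ahnak changed by 0.09 and Synm by 0.01, and neither passed. Of the rule genes, given as a description, Acta2 stood at 959 and 1004 in young cells and 810 and 895 in aged cells, and Myl9 at 506 and 464 against 457 and 410.

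Inflammation and ageing genes gave 0 calls among 21 tested, and the median of their log2 changes was -0.41. Vcam1 stood at 47.5 and 62.4 per 10000 in young cells and 37.2 and 40.0 in aged cells (-0.55 ± 0.19, adjusted p = 0.0713). The complement gene C4b stood at 6.95 and 8.21 against 12.3 and 8.66 (0.43 ± 0.26, adjusted p = 0.324), and the senescence gene Cdkn1a at 5.26 and 4.97 against 7.97 and 6.36 (0.45 ± 0.28, adjusted p = 0.329). Neither passed the test. Differentiation genes gave 0 calls among 6, and Id3 changed by -0.62 (adjusted p = 0.0689).

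**Figure D4:**
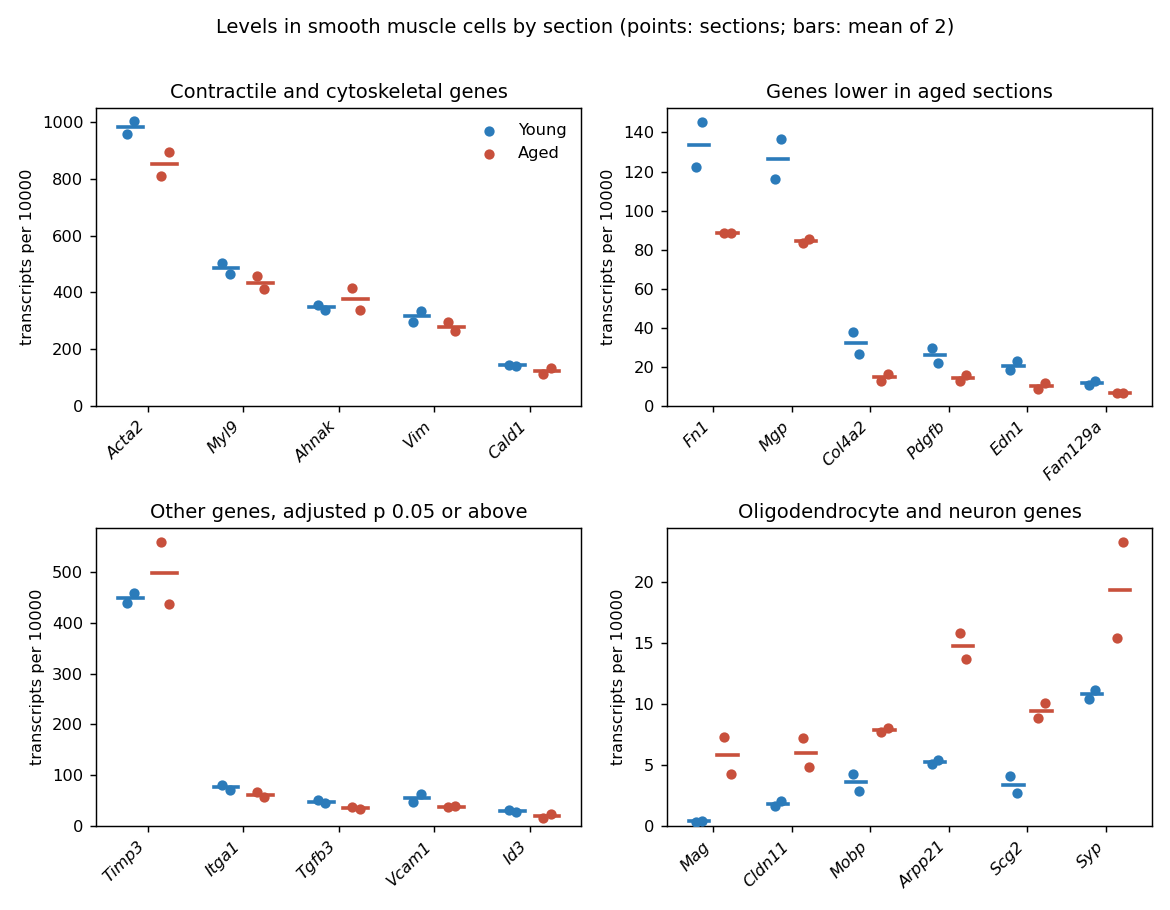
Levels in smooth muscle cells in transcripts per 10000, with 1 point for each section and a bar at the mean of the 2 sections of an age. Both aged points lie below both young points for Acta2 and for the 6 genes at the upper right, and above them for the 6 oligodendrocyte and neuron genes at the lower right.

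All 31 genes that were higher in aged smooth muscle cells stood below their level in all kept cells in each of the 4 sections, among them genes of neurons and oligodendrocytes. The 5 with the largest change were Mag, of the myelin sheath (3.83 ± 0.45, adjusted p = 2.55e-05), the serotonin receptor gene Htr2c (1.73), Spock3 (1.72), Cldn11, of the tight junctions of myelin (1.66), and St8sia3 (1.54). Mag stood at 0.337 and 0.432 per 10000 in young smooth muscle cells and 7.31 and 4.29 in aged ones, and at 28.6, 29.1, 35.5 and 30.2 in all kept cells. Its young levels rest on few molecules, out of 148265 and 185128 transcripts of the young smooth muscle cells, so the size of its change is loosely set. In all kept cells the median log2 ratio of aged to young over these 31 genes was 0.01, against 1.12 in the smooth muscle cells. Rgs9, a spiny neuron gene and the one G protein regulator called of 4, changed by 1.22.

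Marker lists of other cells moved with age in the smooth muscle cells. Oligodendrocyte genes made up 37.1 and 34.4 per 10000 in young and 76.7 and 69.3 in aged cells, and all 5 tested were called. Neuron genes made up 107 and 110 against 151 and 202, with 3 of 7 called, and spiny neuron genes 49.6 and 46.9 against 76.4 and 69.6, with 3 of 9 called. Astrocyte genes made up 664 and 724 against 849 and 837, with 0 of 7 called. No marker of these 4 lists was at 0 in any section, and the least abundant, Opalin, had 2 to 12 transcripts. Genes above their level in all kept cells, 153 of 383, made up 81.4% and 82.0% of the transcripts of young smooth muscle cells and 77.7% and 77.1% of those of aged ones. The part of neighbouring cells in the age changes was not tested. Scaled to the total of these 153 genes alone, which moved the median of all genes to 0.11, 5 genes were lower and 49 higher, and Mgp fell by 0.50, Fn1 by 0.52 and Col4a2 by 1.05.

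**Figure D5:**
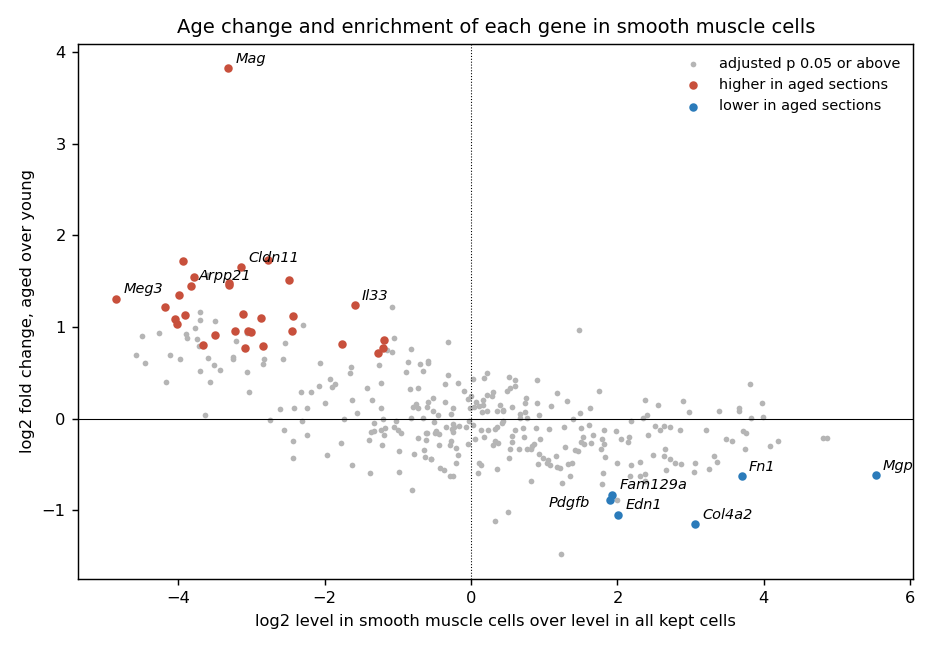
Age change of each tested gene, as log2 fold change of aged over young, against its log2 level in smooth muscle cells over that in all kept cells. The 31 higher genes lie left of the dotted line at 0 and the 6 lower genes right of it.

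The choice of smooth muscle cells bore on these calls. Without the cells near the outline, 4 genes were higher and 1 lower. With at least 8% of Acta2 and Myl9, 1 was higher and 0 lower, with 61 at an unadjusted p under 0.05. Without cells in which at least 3 markers of neurons, oligodendrocytes, astrocytes or microglia were detected, which left 201, 235, 189 and 146 cells, 0 of 195 genes were called by edgeR and 20 had an unadjusted p under 0.05. In this last set all 6 lower genes kept their direction, and Col4a2 changed by -1.20, Mgp by -0.67 and Fn1 by -0.50. Of the 31 higher genes only 11 could be tested there, of which 9 kept their direction. Higher genes such as Mag, Cldn11, Syp and Meg3 are among the markers that removed cells, so the loss of their calls follows from the choice. The set is a part of the same cells, and a kept direction in it is no separate support.

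The age changes of smooth muscle cells were set beside those of the other vascular cells. In pericyte-rule cells 13 of 374 genes outside the rules passed (3.48%), 6 higher (1.6%) and 7 lower (1.87%), and in endothelial-rule cells 0 did (0.0%), with 27 at an unadjusted p under 0.05 by edgeR. Col4a2 fell by 1.04 ± 0.19 in pericyte-rule cells as well (adjusted p = 4.6e-05). Mgp changed there by 0.05 ± 0.18, Edn1 by -0.39 ± 0.20 and Pdgfb by -0.33 ± 0.18, of which none passed. The age change itself differed between smooth muscle and pericyte-rule cells for 48 of 371 genes (12.9%), by the interaction term of the edgeR fit, with 41 higher in smooth muscle cells (11.1%) and 7 lower (1.89%). These included 25 of the 31 higher and 3 of the 6 lower genes. In pericyte-rule cells 30 of the 31 higher and 5 of the 6 lower genes moved in the same direction, with 2 and 1 called. In endothelial-rule cells 27 and 4 did, with 0 called. Between smooth muscle cells near the outline and deep in the tissue the age change differed for 0 of 323 genes by edgeR, with 12 at an unadjusted p under 0.05.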

How the data were processed

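MERFISH data of 4 sections were used, grouped by the deposited titles and ages. The authors decoded the images with MERLIN, segmented cells, and deposited for each cell the raw count of 383 genes, without normalization, its position, and the volume of the segmented cell in cubic micrometres. The authors' table of the mean signal of each gene, in transcripts per cell, was used only to check the reading of the files. Section numbers written inside the young files do not match their titles, which were followed.

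Cells with at least 10 detected genes and a volume of at least 50 µm³ were kept. Levels are transcripts per 10000 transcripts of the cells summed. Tissue was the area of 50 µm squares with at least 2 kept cells, closed, filled and opened. The outline first planned, from all segmented cells, took in debris and was kept as an alternative. Pericyte-rule and endothelial-rule cells had at least 5 transcripts and 4% of their genes, above the genes of the other 2 rules.

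Summed counts were tested with edgeR 4.0.16 (TMM, filterByExpr, quasi-likelihood, Benjamini-Hochberg over all genes, threshold 0.05) in R 4.3.3. Genes of the rules stayed in the fit but were left out of all counts of calls. DESeq2 1.42.0 and limma 3.58.1, no filter, other totals, other rule limits, and each section left out were alternatives. The standard error is the log2 fold change over the square root of F. Genes are named from written lists of functions and markers, and from the top 5 by fold in either direction of a comparison. The members and lists were chosen with earlier results of these data known. Intervals cover counting error only. An item of the lists is counted in the fits but not reported here.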

Additional observations from a re-analysis of the deposited data

Results flagged for a closer look

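The age change differed between smooth muscle cells and pericyte-rule cells for 48 of 371 genes outside the rules (12.9%), with 41 higher and 7 lower in smooth muscle cells, by the interaction term of an edgeR fit with the section as a block, chosen after the data were seen. The median difference over all genes was 0.10. For Mgp the age change was more negative in smooth muscle cells, with a difference of -0.60 ± 0.14 on the log2 scale (adjusted p = 0.000575). Edn1 differed by -0.61 ± 0.20 (adjusted p = 0.0278) and Pdgfb by -0.50 ± 0.18 (adjusted p = 0.0448). For Col4a2 the difference was -0.06 ± 0.18 and for Fn1 -0.15 ± 0.13, and neither passed.

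The other named genes with a difference were those that rose in the aged smooth muscle cells. The difference was 3.51 for Mag, 1.93 for Htr2c, 1.47 for Cldn11, 1.26 for St8sia3, 1.25 for Spock3 and 0.74 for Rgs9. Of the 41 genes with a higher difference, 34 stood below their level in all kept cells in each of the 4 sections and 5 above it. Among the 7 with a lower one, 4 stood above it.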

How the results depend on the processing

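Limits: 2 sections per age, and median cells of 184 to 256.5 transcripts, limit what can be called. The number of genes called with age, 37, became 7 with cells thinned to 200 transcripts, 5 without edge cells, 1 at the 8% limit, 0 without mixed cells (20 at an unadjusted p under 0.05) and 0 (12 at an unadjusted p under 0.05 by edgeR) with edge cells alone, chosen after the data were seen, and ranged from 0 to 23 with 1 section left out. Totals over the 153 genes, also chosen afterwards, gave 54. With the replicate number of the titles as a block 44 were called, 37 of them shared; the deviations of same-numbered sections correlated at -0.0449 over 352 genes, so the numbers were not taken to pair sections. Calls against pericyte-rule cells ranged from 225 to 235 and at the edge from 81 to 105 with 1 section left out. Near and far endothelium gave 71 to 96 calls with 1 section left out (71 without the first young section) and 48, 28 higher and 20 lower, with near set at 50 µm. The difference in share, aged minus young, moved from -0.0887 to -0.0236 percentage points after thinning, and that in density from -1.89 to -0.952 per mm² without the count minimum. The mean share within 100 µm of the outline, 27.5%, was 10.3% with the outline from all segmented cells. Among called genes from the lists of functions or the top 5 by fold, 0 turned direction in any alternative run that tested them. Other called genes were not all checked in this way. Of the 31 genes higher with age, 14 were tested with edge cells alone and 12 kept their direction. The cause of these moves was not tested.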

Other observations

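The tissue around smooth muscle cells had its own make-up. Over the cells within 50 µm that belonged to none of the 3 vascular sets, astrocyte genes made up 541 and 739 transcripts per 10000 in young and 607 and 508 in aged tissue, against 284 to 363 over all such cells. The values near smooth muscle cells were the higher ones in each of the 4 sections. Fibroblast genes made up 43.2, 63.5, 44.9 and 47.1 per 10000 there, against 23.9 to 27.2, and border macrophage genes 13.8, 16.0, 14.9 and 10.8, against 6.95 to 8.29. Spiny neuron genes were lower around smooth muscle cells, at 540, 497, 518 and 488 against 533 to 700, with the lower value near them in each section. These values describe the surroundings and were not tested, and the ages overlapped for these 4 lists. Oligodendrocyte genes did not overlap between the ages, at 141 and 181 per 10000 around young and 215 and 201 around aged smooth muscle cells, against 191, 188, 241 and 212 over all such cells.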
